A study of Mus musculus with 20 samples.

Results

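High and low leukaemia burden were compared among testes that had all been exposed to vincristine, using 8 of the 20 testis RNA-seq libraries of the series. The comparison sets the 4 High-VCR libraries against the 4 Low-VCR libraries, each numbered 1 to 4 and assigned by their titles. All 8 came from testes of male NSG (NOD scid gamma) mice, labelled as 6 weeks old. The mice carried B-ALL (B-cell acute lymphoblastic leukaemia) from 400000 PDX-derived (patient-derived xenograft) cells given by tail vein. All received vincristine sulfate at 0.5 mg/kg into the peritoneum once a week, 3 times, from day 69. With treatment from that day, the labelled age cannot be the age at sampling. The groups differ in how far leukaemia had infiltrated the peripheral blood. The labels give neither its values nor the dividing point, and mice were placed in these groups by an infiltration index, not by an assigned treatment. The labels name one PDX model and do not say whether each sample is a separate mouse, so the spread behind each p-value may in part be technical. For context, NC held normal controls, ALL held engrafted mice without vincristine and VCR held mice given vincristine, whose labels name no injected cells (4 libraries each). Labels place all libraries in batch 1.

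NSG mice lack mature B, T and NK cells and accept human leukaemia. Vincristine binds tubulin and stops the mitotic spindle, and the testis is a known site of relapse of lymphoblastic leukaemia. Sperm arise from stem spermatogonia through Kit-expressing differentiating spermatogonia, meiotic spermatocytes, round spermatids and elongating spermatids, in close contact with Sertoli cells, while Leydig cells between the tubules make testosterone. In bulk tissue such as this, fewer cells of a type and less RNA per cell cannot be told apart.

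Genes that fell in High-VCR relative to Low-VCR included 11 of 25 tested round spermatid genes, 6 of 11 of sperm-egg fusion and 4 of 31 of early meiosis, and single Leydig, endothelial, basement membrane and complement genes rose. edgeR tested 16534 of 22066 gene symbols in one fit of all 5 groups, and genes with a p under 0.05 after Benjamini-Hochberg adjustment are called here. At that threshold 775 genes fell in High-VCR (4.69% of those tested) and 517 rose (3.13%). Falls were large and rises small: the median log2 fold change was -1.90 over the genes that fell and 0.68 over those that rose, against 0.08 over all tested genes, and 645 falls but 99 rises were at least 2-fold. The CPM values (normalised counts, scaled to library size) of the groups did not overlap for 272 of the genes that fell and 372 that rose, where 4.94% and 6.16% of all tested genes had no overlap in the same directions. Unnamed gene models made up 166 of the falls and 7 of the rises, and 68 called symbols carried the same counts in every library as another symbol.

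These calls rest on a thin margin, which applies to every gene below. The smallest adjusted p was 0.0215, with 4570 genes at an unadjusted p under 0.05. A fit of the 8 libraries alone (15938 genes, edgeR) called none, with a smallest adjusted p of 0.0748 and 3713 genes at an unadjusted p under 0.05, while on all 20 libraries DESeq2 called 1226 falls and 903 rises, and limma voom 334 and 377. No gene was called without Low-VCR 1, Low-VCR 3, High-VCR 1 or High-VCR 4, whereas 1135 falls and 2083 rises were called without High-VCR 2, and 909 and 67 without Low-VCR 2. With upper-quartile scaling 804 genes fell and 289 rose, and with no filter on low counts 903 and 182. Scaling to Sertoli genes gave 656 and 34, and moved the median of all tested genes from 0.08 to -0.15.

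**Figure D1:**
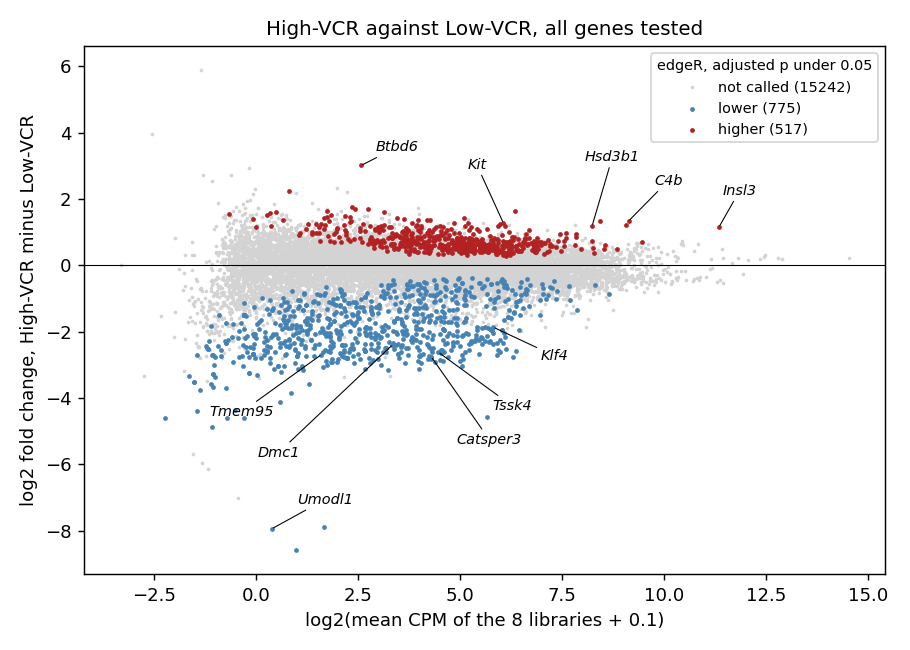
Each point is 1 of the 16534 tested genes, with the log2 of its mean CPM over the 8 libraries (plus 0.1) across and its log2 fold change, High-VCR minus Low-VCR, upwards. The 775 genes that fell (blue) reach far below zero, while the 517 that rose (red) stay close to it, with Btbd6 the highest of them.

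**Figure D2:**
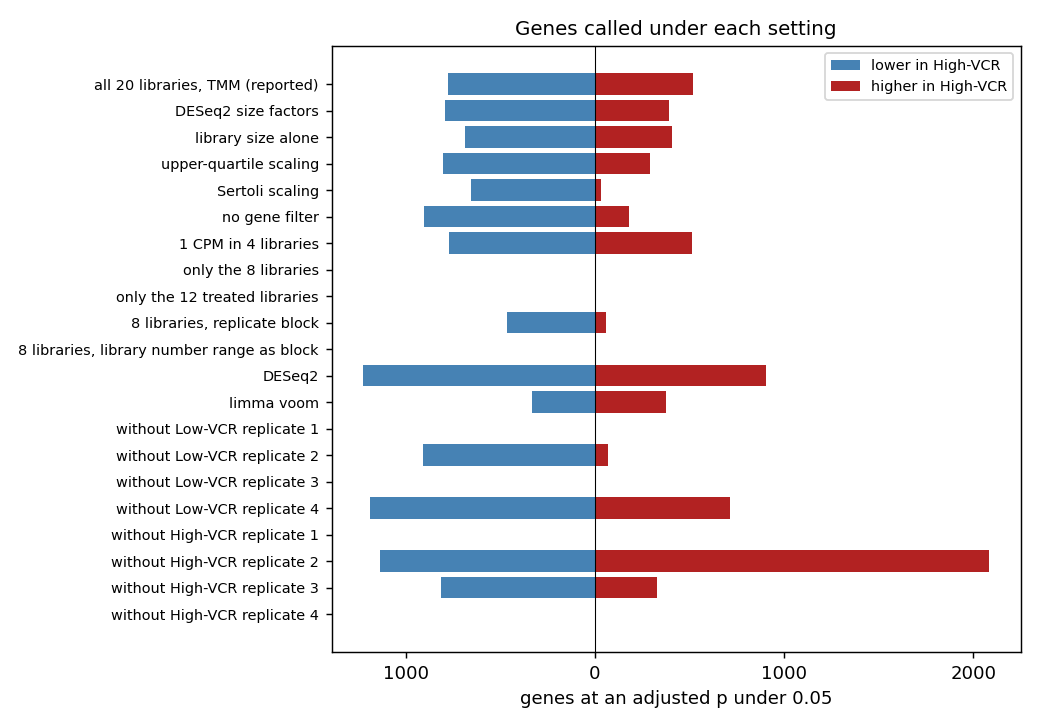
Bars give the number of genes at an adjusted p under 0.05, lower in High-VCR to the left and higher to the right, for the reported fit and each alternative. Rows without a bar had 0 calls, among them the fit of the 8 libraries alone and the fits without Low-VCR 1, Low-VCR 3, High-VCR 1 or High-VCR 4.

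The libraries of each group differed among themselves. On the first principal component of the 8 libraries (42.2% of the variance), Low-VCR 1 to 4 lay at -66.2, -38.3, -60.6 and -0.235, and High-VCR 1 to 4 at 70.9, 10.6, 17.8 and 66.0. Low-VCR 4 was the lowest Low-VCR library for 704 of the 775 genes that fell, and High-VCR 2 was the lowest High-VCR library for 400 of the 517 that rose. The biological coefficient of variation was unequal across the groups: NC 13.9%, ALL 9.33%, VCR 47.2%, Low-VCR 25.9%, High-VCR 32.4%. Pooled over all 5 groups it was 29.8%, and over these 8 libraries 29.2%. The reported fit takes a common spread per gene for all groups. Its adjusted p values therefore depend on an assumption of equal spread that these values do not meet. Low-VCR libraries held 13 to 13.9 M (mega) counts and High-VCR libraries 13.1 to 16.4 M, so that 3 counts equalled 0.167 to 0.23 CPM. Mitochondrially encoded genes took 6.07% ± 1.53 of counts in Low-VCR (SD, n = 4) and 7.32% ± 1.91 in High-VCR, with overlapping ranges. The label testis fits the marker genes, with 7720 to 13160 CPM summed over 25 Sertoli genes in these 8 libraries.

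The library numbers in the labels form a lower and a higher range, each holding 2 libraries of each group (replicates 1 and 2 in the lower, 3 and 4 in the higher), and the labels do not say what the numbers mean. An edgeR fit with the product of group and range, on 4 residual degrees of freedom, found no gene whose difference depended on the range (smallest adjusted p 0.0563, 154 genes at an unadjusted p under 0.05). Within the lower range edgeR called 1 gene (1836 at an unadjusted p under 0.05), and within the higher range none (793). Among named calls the log2 fold changes in the lower and the higher range were 4.36 and 1.88 for Btbd6, 1.38 and 0.49 for Angptl4, and -1.07 and -0.38 for Asns, genes described below.

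Tssk4, a testis-specific serine kinase of spermatids named in the series title, was at 55.0, 23.9, 63.2 and 9.29 CPM in Low-VCR 1 to 4, and at 6.65, 3.37, 10.6 and 4.02 CPM in High-VCR 1 to 4. The groups overlapped: High-VCR 3 lay above Low-VCR 4. Tssk4 fell in High-VCR by 2.62 ± 0.67 on the log2 scale (edgeR adjusted p 0.029), with an adjusted p of 0.0748 in the 8 libraries alone. Such values, here and below, are fold change ± standard error with n = 4 per group. The standard error came from the fit of all 20 libraries, so it takes spread from NC, ALL and VCR too. In an exact two-sided permutation test of log2(CPM + 1), which takes no spread from other groups, the difference was -2.22 with p = 0.0571 (0.0571 adjusted over the 2 genes so tested), where 0.0286 is the smallest p that 4 against 4 allows. The mean of Tssk4 was 108 CPM in NC, 87.1 in ALL and 4.26 in VCR.

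Ccdc159, the coiled-coil gene that the title also names, did not pass. It was at 26.6, 38.5, 17.6 and 25.5 CPM in Low-VCR and 8.48, 5.26, 24.8 and 8.71 CPM in High-VCR, and High-VCR 3 lay within the Low-VCR values. Its log2 fold change was -1.19 ± 0.79 (edgeR adjusted p 0.339; 0.141 in the 8 libraries alone), with -2.23 within the lower library number range and -0.46 within the higher. The exact permutation p was 0.0571, also 0.0571 after adjustment.

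Of the 7 tested genes of the Tssk family and their substrate Tsks, Tssk4 and Tssk5 fell and none rose. Tssk5 fell most, by 3.17 ± 0.73 on the log2 scale (adjusted p 0.0238; 0.0894 in the 8 libraries alone), from 30.6, 5.6, 28.8 and 1.81 CPM in Low-VCR to 2.78, 1.88, 2.5 and 0.335 CPM in High-VCR. Low-VCR 4 lay inside the High-VCR range. The remaining 5 did not pass: the log2 fold changes of Tssk1, Tssk3, Tsks, Tssk2 and Tssk6 were -0.996, -0.72, -0.66, -0.37 and -0.02.

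Regulatory sequence is shown for 4 of the genes that fell: Tssk4, and 3 genes of the sperm membrane that are needed for fusion with the egg, Izumo1, Tmem95 and Dcst2. Each is the RefSeq promoter window (build GRCm38.p6) from 250 bases before to 50 bases after the transcription start, 5′ to 3′ on the strand of the gene. Capitals mark the cAMP response element TGACGTCA or its core TGACGT, which CREM, an activator of spermatid genes, recognises. In Dcst2 they mark the bases shared with the window of its divergent neighbour Dcst1. The windows are chr7:45621561-45621860 (+) for Izumo1, chr11:69878006-69878305 (-) for Tmem95, chr14:55649934-55650233 (+) for Tssk4 and chr3:89365069-89365368 (+) for Dcst2, with Dcst1 at chr3:89365204-89365503 (-).
Izumo1: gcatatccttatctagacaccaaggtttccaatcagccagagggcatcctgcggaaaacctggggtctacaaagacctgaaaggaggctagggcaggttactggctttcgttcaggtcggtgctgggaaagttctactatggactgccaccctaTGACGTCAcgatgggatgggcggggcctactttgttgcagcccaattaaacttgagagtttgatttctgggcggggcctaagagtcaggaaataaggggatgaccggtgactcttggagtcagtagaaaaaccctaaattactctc
Tmem95: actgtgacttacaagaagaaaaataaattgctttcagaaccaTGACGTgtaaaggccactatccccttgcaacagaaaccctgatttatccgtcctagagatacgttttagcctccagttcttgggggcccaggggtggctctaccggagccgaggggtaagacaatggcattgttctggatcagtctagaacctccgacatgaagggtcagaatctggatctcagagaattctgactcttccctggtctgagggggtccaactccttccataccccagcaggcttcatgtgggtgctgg
Tssk4: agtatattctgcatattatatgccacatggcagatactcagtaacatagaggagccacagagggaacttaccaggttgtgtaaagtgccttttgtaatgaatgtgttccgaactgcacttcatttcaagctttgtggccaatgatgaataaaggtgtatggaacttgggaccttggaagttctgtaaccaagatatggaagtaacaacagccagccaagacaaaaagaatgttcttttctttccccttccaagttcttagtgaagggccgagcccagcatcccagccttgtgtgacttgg
Dcst2: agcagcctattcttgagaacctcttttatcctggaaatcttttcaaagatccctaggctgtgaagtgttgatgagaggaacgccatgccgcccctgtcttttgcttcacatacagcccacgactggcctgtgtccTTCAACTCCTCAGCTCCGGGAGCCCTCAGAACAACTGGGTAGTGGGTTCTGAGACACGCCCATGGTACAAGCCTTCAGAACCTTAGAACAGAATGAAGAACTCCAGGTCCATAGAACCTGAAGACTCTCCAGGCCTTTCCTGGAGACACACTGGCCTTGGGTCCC

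Izumo1 held the full element, Tmem95 the core alone, and the Tssk4 window held neither on either strand. Searched on both strands, TGACGTCA occurred in 1.79% of 32851 promoter windows of this length and TGACGT, which lies within it, in 7.51%. Counting a gene if any of its windows matched (genes differ in their number of windows), TGACGTCA was present for 3.49% of 573 genes that fell, 1.53% of 392 that rose and 3.16% of 11822 tested genes that were not called. The corresponding shares for TGACGT were 8.9%, 8.67% and 11.7%. GGGCGG, the GC box bound by Sp1, occurred in 35.7% of all windows, for 37.3% of the genes that fell, 73.5% of those that rose and 62.5% of those not called. The Dcst1 and Dcst2 windows shared 165 bases. These are descriptions of letters in windows, without a test.

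Sperm-egg fusion genes had the second lowest median of the 40 gene lists, -0.97, and the highest share of falls. Of 11 tested, 6 fell (Izumo1, Tmem95, Dcst1, Dcst2, Tmem81 and Spata46), none rose, and all 11 lay below zero. Tmem95, a sperm membrane protein required for fusion, was at 7.38, 3.3, 8.59 and 1.02 CPM in Low-VCR and 0.882, 0.779, 0.92 and 0.558 CPM in High-VCR. The groups did not overlap, although Low-VCR 4 lay close to the High-VCR libraries. Tmem95 fell by 2.69 ± 0.45 on the log2 scale (adjusted p 0.0215; 0.0748 in the 8 libraries alone), with -2.66 and -2.80 within the library ranges. Izumo1, the sperm ligand of the egg receptor Juno, fell by 2.30 (adjusted p 0.0253), whereas the log2 fold changes of the sperm ADAM genes Adam2 and Adam3 were -0.17 and -0.44 and did not pass. Dcst1 and Dcst2 fell, with -2.39 ± 0.50 and -2.26 ± 0.46 (adjusted p 0.0215 each; 0.0751 and 0.0761 in the 8 libraries alone). Their annotated spans overlap, so the counts of that pair may share reads.

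Round spermatid genes, which also include Izumo1, Spata46 and the Catsper genes named below, had the lowest median, -1.05. Of 25 tested, 11 fell, none rose, and all 25 lay below zero. Acrosome genes among them were Acrv1, Spaca1, Spaca3 and Spaca4, which fell, with log2 fold changes of -2.51, -2.28, -2.49 and -2.52 (adjusted p 0.0428, 0.0337, 0.023 and 0.0269). Other acrosome genes of the list, Acr, Acrbp and Zpbp, did not pass at -1.05, -0.78 and -0.90. Lyzl4, a lysozyme-like protein of the acrosome, was at 10.8, 5.37, 11.7 and 2.9 CPM in Low-VCR and 2.24, 1.69, 2.76 and 1.12 CPM in High-VCR, without overlap. It fell by 1.99 ± 0.43 (adjusted p 0.0215; 0.0748 in the 8 libraries alone). The score of this list, the mean log2 CPM of its tested members, was 6.73, 5.98, 6.76 and 5.51 in Low-VCR 1 to 4 and 4.56, 5.23, 5.29 and 4.34 in High-VCR 1 to 4, so that every High-VCR library lay below every Low-VCR library.

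**Figure D3:**
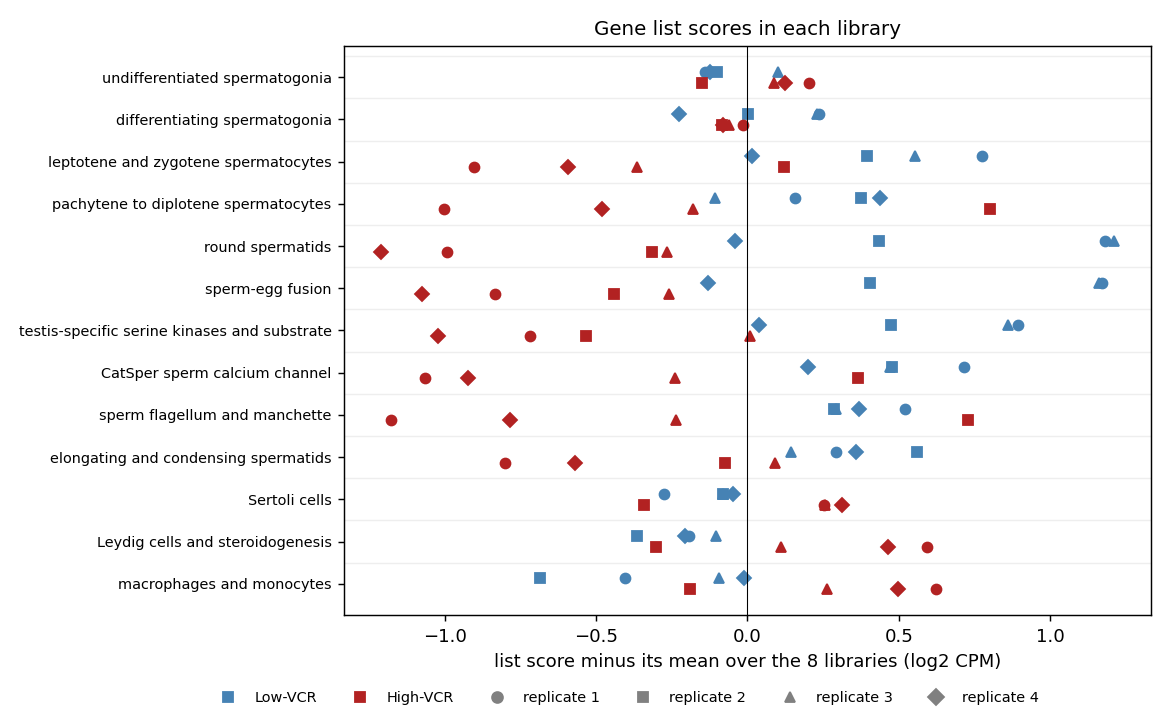
Each symbol is 1 library, placed by its list score (mean log2 CPM of the tested members) minus the mean of that score over the 8 libraries, with 1 row per gene list. For round spermatids, sperm-egg fusion, testis-specific serine kinases and elongating spermatids, all 4 High-VCR libraries (red) lie left of all 4 Low-VCR libraries (blue). The gap is narrow for the kinases (6.44 against 6.47) and elongating spermatids (8.60 against 8.65). For pachytene to diplotene spermatocytes and sperm flagellum High-VCR 2 lies right of all Low-VCR libraries.

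CatSper, the calcium channel of the sperm tail, showed the same unevenness between subunits. Of 14 tested genes 5 fell and none rose: Catsper1, Catsper3 and Catsper4, which form the pore, and the auxiliary genes Efcab9 and Tmem249. Catsper3 was at 56.8, 15.3, 57.9 and 5.81 CPM in Low-VCR and 6.37, 4.35, 6.51 and 2.85 CPM in High-VCR, with Low-VCR 4 inside the High-VCR range. The log2 fold changes were -2.76 ± 0.56 for Catsper3 (adjusted p 0.0215), -1.91 ± 0.43 for Catsper1 (adjusted p 0.0225) and -2.30 ± 0.50 for Tmem249 (adjusted p 0.0215), each with 0.0748 in the 8 libraries alone. Catsper2, the remaining pore subunit, did not pass at -0.51 (adjusted p 0.494). The auxiliary subunits Catsperb, Catsperd, Catsperg1 and Catsperg2 lay at -0.13, -0.11, -0.08 and -0.06 and did not pass either. The list's median was -0.50.

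Early meiotic genes fell in part. Of 31 tested genes of leptotene and zygotene spermatocytes, Meiosin, Dmc1, Rec8 and Tex15 fell, none rose, and 28 lay below zero, with a median of -0.54. Meiosin, which acts with Stra8 to start meiosis, was at 46.8, 10.7, 49.2 and 7.19 CPM in Low-VCR and 2.31, 4.09, 4.4 and 2.23 CPM in High-VCR. Dmc1, the meiotic recombinase, was at 28, 9.51, 25.1 and 5.08 CPM in Low-VCR and 2.92, 3.11, 4.01 and 2.85 CPM in High-VCR. For both genes the groups did not overlap, and Low-VCR 1 and 3 stood well above Low-VCR 2 and 4. Meiosin fell, with -3.13 ± 0.69, and so did Dmc1, with -2.39 ± 0.48 (adjusted p 0.0215 each; 0.0748 each in the 8 libraries alone).

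The Low-VCR means of Dmc1, Meiosin and Prdm9 lay above those of untreated testis, carried by Low-VCR 1 and 3. Low-VCR 4 lay below the NC mean for each gene, and Low-VCR 2 did so for Dmc1 and Meiosin. Dmc1 averaged 16.9 CPM in Low-VCR, 14.8 in NC, 13.2 in ALL, 6.38 in VCR and 3.22 in High-VCR, and Meiosin 28.5, 22.5, 22.1, 8.23 and 3.26 CPM in the same order. Prdm9, the histone methyltransferase that places recombination hotspots, fell by 0.94 ± 0.28 (adjusted p 0.0493; 0.122 in the 8 libraries alone) and averaged 11.9 CPM in NC. Its Low-VCR libraries were at 25.1, 12.3, 24 and 8.64 CPM and its High-VCR libraries at 9.02, 8.18, 9.2 and 10 CPM, which overlap. Rec8, a meiotic cohesin, behaved otherwise: it averaged 53.6 CPM in Low-VCR, 141 in NC and 12.2 in High-VCR, and fell by 2.14 ± 0.48 (adjusted p 0.0229; 0.0773 in the 8 libraries alone). Levels in NC, ALL and VCR are given as context and were not tested against these groups here.

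Pachytene to diplotene spermatocytes and elongating spermatids gave 1 call each. These were 4% and 3.7% of the tested members, near the 4.69% of all tested genes that fell. Of 25 tested genes of pachytene to diplotene spermatocytes only Cdc25c, a phosphatase that activates the mitotic and meiotic kinase Cdk1, fell, by 1.07 ± 0.30 (adjusted p 0.0385; 0.0748 in the 8 libraries alone). It was at 27.3, 17.6, 27.2 and 14.2 CPM in Low-VCR and 8.21, 10.3, 13.5 and 9.15 CPM in High-VCR, without overlap. The median of that list was -0.34 over all libraries, 0.08 within the lower library number range and -0.75 within the higher. Its score was highest of all in High-VCR 2, at 7.18, against 5.38, 6.20 and 5.90 in the other High-VCR libraries and 6.28 to 6.82 in Low-VCR.

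Genes of elongating spermatids, which pack DNA and build the tail, all lay below zero (27 of 27, median -0.50), yet only Cabyr was called. For 7 of the 27 the groups did not overlap, with High-VCR lower, as for 4.94% of all tested genes. The list's score was 8.65 to 9.07 in Low-VCR and 7.71 to 8.60 in High-VCR, without overlap. Cabyr, a calcium-binding protein of the fibrous sheath, fell by 2.15 ± 0.51 (adjusted p 0.0245; 0.0748 in the 8 libraries alone), from 114, 58.9, 128 and 25.6 CPM to 18.6, 13.9, 27.7 and 13.5 CPM. The protamines Prm1 and Prm2 and the transition proteins Tnp1 and Tnp2, which replace histones in sperm, did not pass, at -0.27, -0.35, -0.37 and -0.44. Among 33 tested genes of the flagellum and manchette 3 fell and none rose, with a median of -0.47. These were Dnah3, an axonemal dynein, at -2.60 ± 0.66, Spag6 of the central pair at -2.56 ± 0.62 and Tekt2, a tektin, at -2.03 ± 0.53 (adjusted p 0.0279, 0.0247 and 0.0311; 0.0796, 0.0748 and 0.0748 in the 8 libraries alone). Of these only Tekt2 did not overlap, at 149, 64.3, 175 and 42.7 CPM against 21.2, 38.5, 31.7 and 14.1 CPM. Spag6 has a near-identical copy, Spag6l, and its count may depend on how shared reads were divided.

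No stem cell gene of spermatogonia was called. The 14 tested genes of undifferentiated spermatogonia lay on both sides of zero, 6 below and 8 above, with Shisa6 lowest at -0.78. Their median was 0.12, or -0.18 with scaling to Sertoli genes and as low as -0.06 without 1 library. Tspan8 came closest, at 1.00 ± 0.32 (adjusted p 0.0611; 0.079 in the 8 libraries alone). Among 14 genes of differentiating spermatogonia Kit rose and Prdm9 fell. Kit, the receptor of stem cell factor, which Leydig cells also express, was at 49.1, 26.4, 45.8 and 33.7 CPM in Low-VCR and 118, 59, 70 and 130 CPM in High-VCR, without overlap. It rose by 1.28 ± 0.23 (adjusted p 0.0215; 0.0748 in the 8 libraries alone), and averaged 11.4 CPM in NC and 95.8 in VCR. The other 12 did not pass and lay on both sides of zero, from -1.27 (Rhox13) to 0.76 (Ccnd2, a cyclin, without overlap), and the list's median was 0.01, with its sign turning with other scalings or without 1 library.

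**Figure D4:**
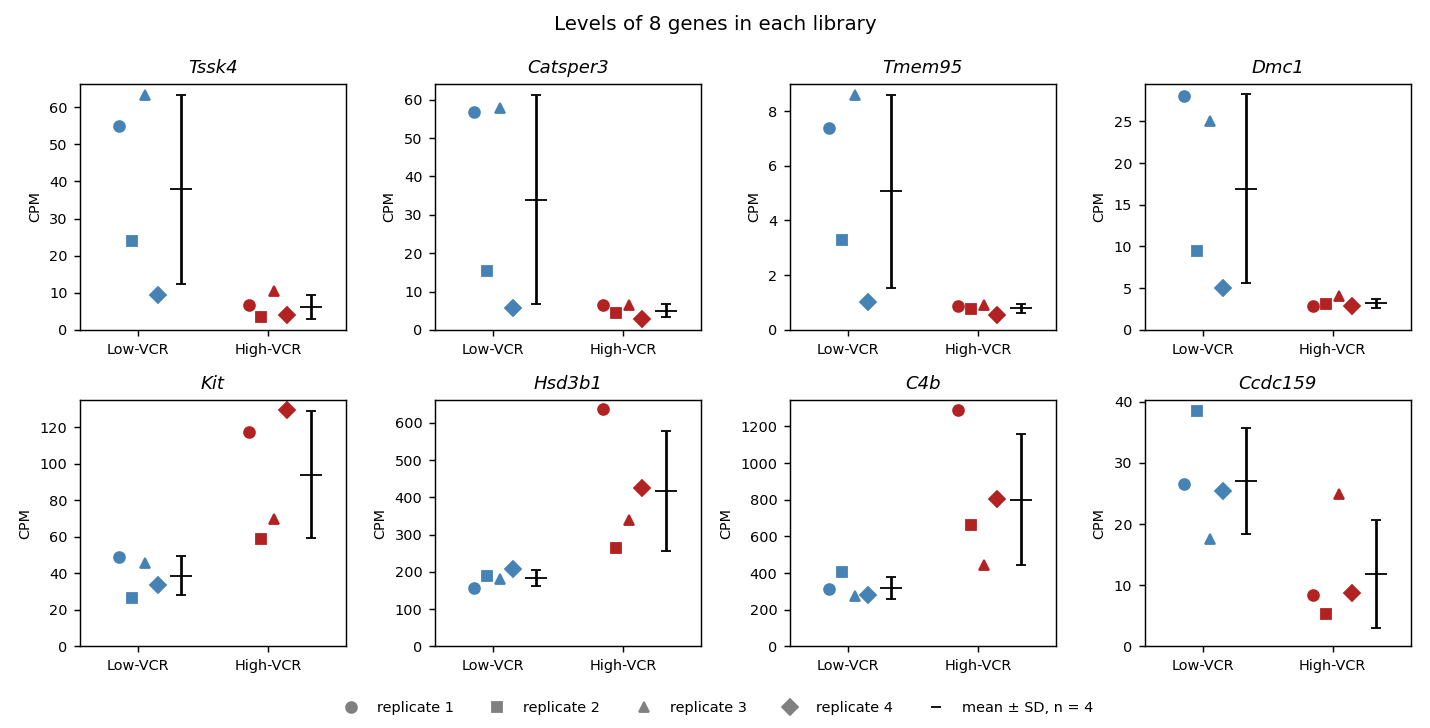
Each panel shows 1 gene, with CPM upwards, 1 symbol per library (blue Low-VCR, red High-VCR) and the mean ± SD of 4 libraries beside them. In Tssk4, Catsper3, Tmem95 and Dmc1, Low-VCR 4 (blue diamond) lies near the High-VCR libraries, while Kit, Hsd3b1 and C4b separate the groups without overlap and Ccdc159 does not.

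The largest falls by the naming rule (no overlap, at least 1 CPM in the higher group) were mostly of genes with few counts in High-VCR. Umodl1, a membrane gene related to uromodulin, had 138 counts in Low-VCR and 0 in High-VCR, at least 51.5-fold lower when 3 counts over the group are taken as the floor. Its Low-VCR libraries were at 3.17, 2.15, 3.28 and 1.02 CPM, so all 4 contributed. Dpp6, a partner of Kv4 potassium channels, had 350 counts in Low-VCR and 1 in High-VCR, a ratio of 392 (95% counting interval 69.8 to 15500). Low-VCR 4, at 0.0726 CPM, lay with the High-VCR libraries, and the other Low-VCR libraries were at 7.8, 7.36 and 9.18 CPM. Dpp6 also varied widely without vincristine, at 4.51 ± 8.84 CPM in NC (mean ± SD, n = 4) and 12.9 ± 8.55 CPM in ALL. Its mean in VCR was 0.0164 CPM. The ratio therefore may reflect differences between single samples, which was not tested. Counting intervals and floors cover counting error only.

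Further falls of this kind were those of Pacs2, Zscan10, Samt2b, Nutm2, Semp2l1, Adam26b, Ssxb5, Cldn34c3 and Cfap100, between -4.56 (Pacs2) and -2.77 (Cfap100), beside Meiosin above. Their adjusted p lay between 0.0215 and 0.0385 in the reported fit. In the 8 libraries alone they were 0.085 for Pacs2, 0.0822 for Zscan10, 0.0798 for Ssxb5 and 0.0748 for Samt2b, Nutm2, Semp2l1, Adam26b and Cfap100. Cldn34c3 and Dpp6 did not enter that fit. Pacs2, a sorting protein, was at 129, 41.9, 170 and 44.4 CPM in Low-VCR and 0, 10.6, 5.72 and 0 CPM in High-VCR. Its annotated span overlaps that of the testis gene Tex22. Samt2b, Adam26b, Ssxb5, Semp2l1 and Cldn34c3 belong to multicopy families, whose counts are uncertain. Cfap100, an axonemal protein, fell from 48.9, 11.9, 65.6 and 7.99 CPM to 5.15, 4.67, 7.03 and 2.9 CPM.

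Large rises by the same rule were those of Btbd6, Ankrd63, Stk32a, Tmem164, Pgbd5, Plvap, Cdk15, Abhd15, Pcdhga6, Esr1 and Pde8b, from 3.01 down to 1.42 on the log2 scale. Pgbd5, derived from a transposase, was at 36.8, 26.4, 33.1 and 61.4 CPM in Low-VCR and 177, 87.8, 91.8 and 138 CPM in High-VCR, and rose by 1.65 ± 0.25. Esr1, the oestrogen receptor alpha, was at 2.9, 1.07, 2.36 and 2.98 CPM against 8.61, 4.35, 5 and 8.09 CPM, and rose by 1.48 ± 0.29. In both High-VCR 2 was the lowest High-VCR library, and the adjusted p was 0.0215 (0.0748 in the 8 libraries alone). In VCR they averaged 92.4 and 5.95 CPM, and in NC 17.3 and 1.38 CPM.

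Plvap, which forms the diaphragms of endothelial pores, rose by 1.64 ± 0.43 (adjusted p 0.0307), from 1.17, 1.84, 1.51 and 1.74 CPM to 7.32, 3.7, 4.14 and 4.47 CPM. Pde8b, a cAMP phosphodiesterase of steroid-making cells, rose by 1.42 ± 0.36 (adjusted p 0.0287), from 5.66, 4.98, 6.95 and 6.03 CPM to 21.8, 9.28, 13.5 and 18.8 CPM. Stk32a, Tmem164, Abhd15 and Pcdhga6 rose by 1.76, 1.69, 1.58 and 1.52. In the 8 libraries alone the adjusted p was 0.0748 for these 6 genes and for Btbd6, 0.079 for Ankrd63 and 0.0905 for Cdk15. Btbd6 rose most, by 3.01 ± 0.85 (adjusted p 0.0411), but its span lies within that of Brf1. Low-VCR 4, at 3.27 CPM, stood near High-VCR 4, at 4.52 CPM. Pcdhga6 shares exons with its cluster neighbours, so its count is uncertain too.

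Leydig genes were higher in part. Of 16 tested, Hsd3b1, Insl3 and Nr5a1 rose, Cyp2f2 fell, and 15 lay above zero, with a median of 0.50 (0.21 with scaling to Sertoli genes). Cyp2f2, a cytochrome P450, fell by 1.11 ± 0.32 (adjusted p 0.0417; 0.142 in the 8 libraries alone). Hsd3b1, which makes progesterone from pregnenolone, was at 157, 190, 181 and 207 CPM in Low-VCR and 637, 264, 340 and 426 CPM in High-VCR, and rose by 1.18 ± 0.27 (adjusted p 0.0238; 0.0748 in the 8 libraries alone). Insl3, a Leydig peptide hormone, was at 1373, 1646, 1477 and 1953 CPM against 5214, 2710, 2994 and 3360 CPM, and rose by 1.15 ± 0.32 (adjusted p 0.037; 0.0748 in the 8 libraries alone). High-VCR 1 was highest and High-VCR 2 lowest in both genes, without overlap between the groups. The steroidogenic genes Star, Cyp11a1 and Cyp17a1 did not pass, at 0.27, 0.71 and 0.50. The 17 Leydig genes of the table summed to 5787 to 7158 CPM in Low-VCR and 7428 to 15182 CPM in High-VCR.

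None of 25 tested Sertoli genes was called. Their median was 0.28, and 0.00 with scaling to these same genes, which holds their sum level. Sox9, a determinant of Sertoli identity, was at 44.1, 42.7, 53.1 and 62.9 CPM in Low-VCR and 82.2, 51.3, 80.8 and 84.2 CPM in High-VCR (0.56 ± 0.18, adjusted p 0.0633). Of 17 genes of the blood-testis barrier only Espn, an actin-bundling protein, rose, by 0.51 ± 0.15 (adjusted p 0.0432; 0.142 in the 8 libraries alone), with a list median of 0.38. Over all tested genes 3.13% rose, so 1 call in such a list is near that share. No peritubular gene of 14 was called, and their median was 0.28. With scaling to Sertoli genes the barrier median was 0.10 and the peritubular median 0.02.

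Endothelial and basement membrane genes were among those that rose. Kdr, a receptor of vascular endothelial growth factor, was at 19.7, 15.7, 17.4 and 24.2 CPM in Low-VCR and 44.8, 26.3, 34.6 and 46.1 CPM in High-VCR, without overlap, and rose by 0.98 ± 0.22 (adjusted p 0.0215; 0.0748 in the 8 libraries alone). Sox18, an endothelial transcription factor, rose by 0.85 ± 0.22 (adjusted p 0.0299; 0.117 in the 8 libraries alone), with 1.28 within the lower library number range and 0.33 within the higher. These were 2 of 15 endothelial genes, all above zero, with a median of 0.37 (0.09 with scaling to Sertoli genes). Of 21 matrix genes 3 rose, all of basement membrane: Lamc1, a laminin chain, by 0.83 ± 0.22, and the type IV collagens Col4a1 and Col4a2 by 0.77 ± 0.21 and 0.70 ± 0.19 (adjusted p 0.0311, 0.0381 and 0.0383; 0.0897, 0.109 and 0.125 in the 8 libraries alone). For Col4a1 the libraries were at 120, 66.2, 115 and 121 CPM in Low-VCR and 215, 149, 152 and 204 CPM in High-VCR. Other laminin genes of the list, Lama2 and Lamb1, were not called, at 0.23 and 0.57. Fn1, Lum and Postn lay below zero, at -1.265, -0.47 and -1.44, and were not called, while 18 of the 21 lay above zero. Over all tested genes 3.13% rose. The matrix median was 0.49, and 0.195 with scaling to Sertoli genes.

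**Figure D5:**
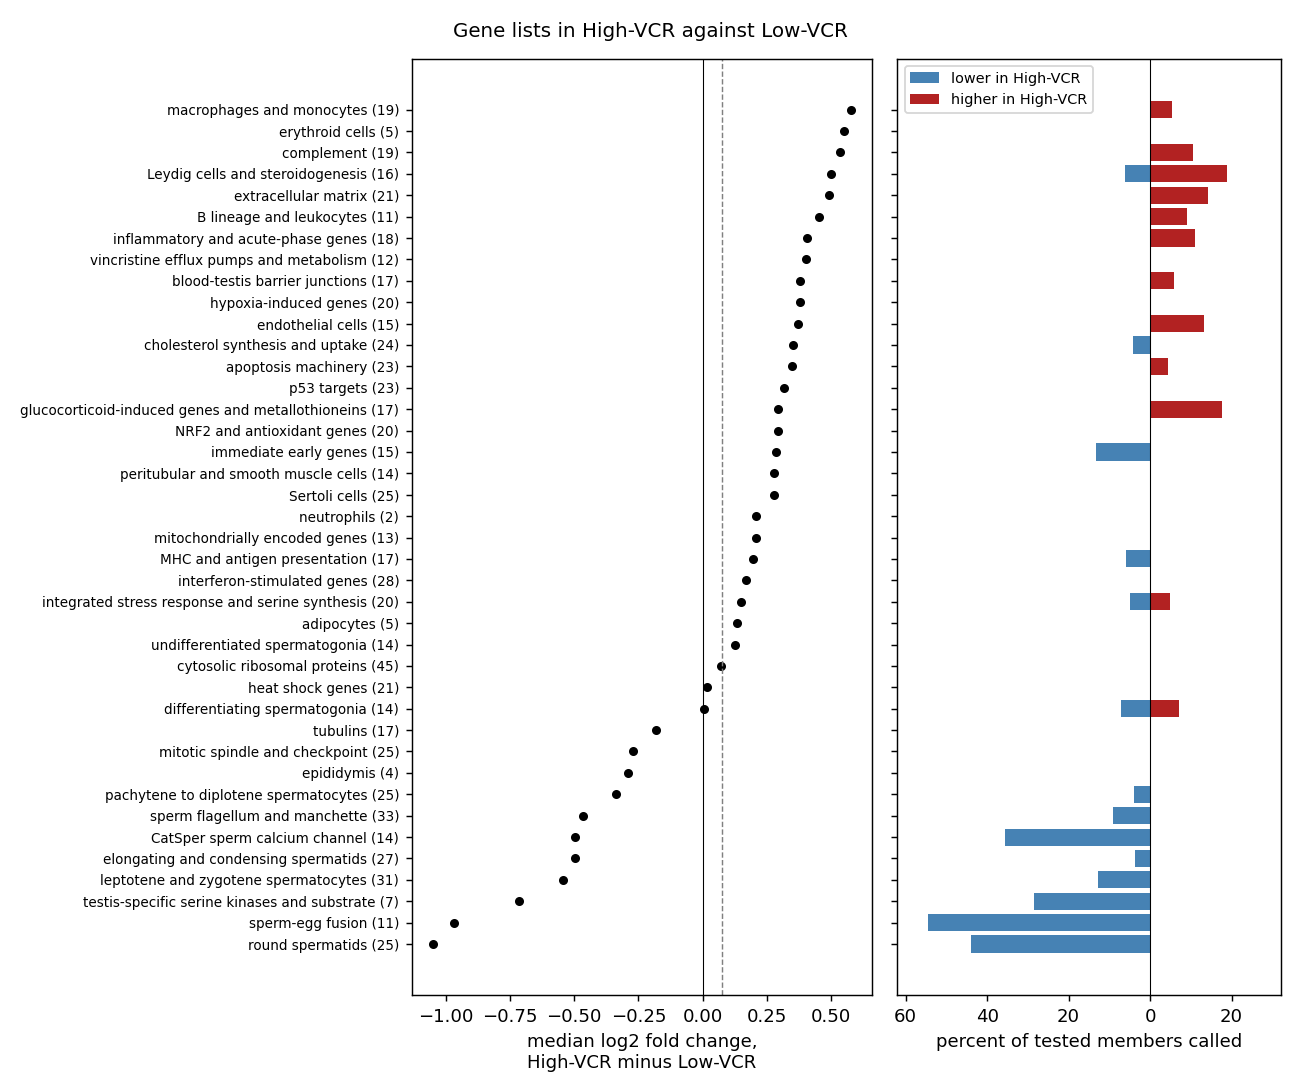
Left, points give the median log2 fold change of the tested members of each of the 40 lists (number tested in brackets), with the median of all tested genes, 0.08, dashed. Right, bars give the percent of tested members called lower (blue) or higher (red), where 4.69% and 3.13% of all genes were called. Round spermatids, at -1.05, and sperm-egg fusion, at -0.97, lie lowest, and macrophages, at 0.58, highest.

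Of 19 tested complement genes C4b and Serping1 rose and 17 lay above zero, with a median of 0.53 (0.19 with scaling to Sertoli genes). The list's score was 4.79 to 5.27 in Low-VCR and 5.32 to 5.93 in High-VCR, without overlap. C4b, an activating component, was at 313, 403, 273 and 279 CPM in Low-VCR and 1291, 664, 445 and 801 CPM in High-VCR, and rose by 1.33 ± 0.30 (adjusted p 0.023; 0.0748 in the 8 libraries alone), although reads shared with a near-identical complement copy are uncertain. Serping1, the inhibitor of the C1 complex, rose by 0.73 ± 0.21 (adjusted p 0.0411; 0.0879 in the 8 libraries alone). The score of 18 inflammatory genes, 16 of them above zero, was 3.10 to 3.44 in Low-VCR and 3.52 to 4.06 in High-VCR, also without overlap. Their median log2 fold change was 0.41, and 0.11 with scaling to Sertoli genes. Among them Cebpd, a transcription factor, rose by 1.27 ± 0.33, and Serpina3n, a secreted protease inhibitor, by 1.02 ± 0.30 (adjusted p 0.0316 and 0.0466; 0.0748 and 0.0767 in the 8 libraries alone). Cebpd was at 9.11, 7.67, 5.31 and 11 CPM against 24.5, 15.2, 20.5 and 19.5 CPM.

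Macrophage genes had the highest median of the 40 lists in the reported fit, 0.58 (0.28 with scaling to Sertoli genes), but of 19 tested only Mrc1, the mannose receptor, rose, by 0.59 ± 0.17 (adjusted p 0.0416; 0.104 in the 8 libraries alone). That 1 call is near the 3.13% of all tested genes that rose. Summed over 20 genes the macrophage list lay at 652 to 764 CPM in Low-VCR and 666 to 1210 CPM in High-VCR, with none at 0. No gene of 28 interferon-stimulated genes was called, with a median of 0.17, or -0.15 with scaling to Sertoli genes. Among 17 genes of antigen presentation H2-DMa fell, by 0.81 ± 0.24 (adjusted p 0.0454, and 0.135 in the 8 libraries alone), and none rose. This was 5.88% of the list, near the 4.69% of all tested genes that fell.

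Mouse genes of the B lineage do not measure the human leukaemia, and whether human reads entered these counts is not given in the sources used here. Of 19 such genes 11 were tested and Mme alone rose, from 9.38, 8.97, 8.86 and 10 CPM to 20.1, 10.1, 16.3 and 16.3 CPM, by 0.75 ± 0.20 (adjusted p 0.0327; 0.0855 in the 8 libraries alone). Mme encodes neprilysin (CD10), a peptidase that stromal cells carry as well. Over all tested genes 3.13% rose. The B-cell genes Cd79a, Cd79b, Ms4a1 and Vpreb1 were too low to test. The list summed to 28.7 to 39.5 CPM in Low-VCR and 38.7 to 57.8 CPM in High-VCR.

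Markers of other cells gave no called gene. Neutrophil genes summed to 6.17 to 7.97 CPM in Low-VCR and 6.64 to 10.3 CPM in High-VCR, erythroid genes to 130 to 456 and 182 to 635 CPM, adipocyte genes to 15.3 to 31 and 12.4 to 19.6 CPM (Cidec and Lep at 0 in all 8 libraries), and epididymal genes to 101 to 125 and 71.7 to 104.5 CPM. The score of the 4 tested epididymal genes, all below zero, was 3.169 to 3.497 in Low-VCR and 2.346 to 3.164 in High-VCR. This list thus leaned lower alongside the germ cell falls, but its scores barely separated and its sums overlapped. Of its 11 genes 6 had under 10 counts over the 8 libraries, and Lcn5, Lcn8, Adam7 and Crisp1 were not tested. Cst8 alone averaged 60.5 CPM of a mean sum of 111 in Low-VCR, and 42.0 of 83.8 in High-VCR. Its mean was 82.0 CPM in NC and 25.3 in VCR. The sum thus rests in large part on Cst8 and is a weak measure of epididymis. Adipoq, the adipocyte hormone, did not pass at -1.56 ± 0.57 (adjusted p 0.0934). The part of these markers in the results above was not tested.

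Stress genes were mostly not called, where 4.69% of all tested genes fell and 3.13% rose. None of the tested p53 target, antioxidant, hypoxia and heat shock genes (23, 20, 20 and 21) was called, with medians of 0.32, 0.29, 0.38 and 0.02. With scaling to Sertoli genes the p53 and hypoxia medians were 0.05 and 0.09, and the other medians turned negative. Of 23 apoptosis genes Xiap, a caspase inhibitor, rose by 0.96 ± 0.23 (adjusted p 0.0245; 0.0798 in the 8 libraries alone), from 2.48, 1.46, 1.84 and 1.81 CPM to 4.27, 2.73, 3.75 and 4.13 CPM. Among 17 glucocorticoid-induced genes Angptl4, Fkbp5 and Pdk4 rose, by 1.03 ± 0.27, 0.61 ± 0.16 and 1.11 ± 0.33 (adjusted p 0.0311, 0.0326 and 0.0472; 0.11, 0.108 and 0.0902 in the 8 libraries alone). Angptl4 was at 54.2 CPM in High-VCR 1 and at 20.5 to 25.6 CPM in the other High-VCR libraries. Of the integrated stress response, Asns, asparagine synthetase, fell by 0.67 ± 0.18, and the transporter chain Slc3a2 rose by 0.72 ± 0.20 (adjusted p 0.0311 and 0.0385; 0.0924 and 0.123 in the 8 libraries alone).

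Klf4 and Fosb, transcription factors of the immediate early list, fell, with -1.87 ± 0.39 and -2.08 ± 0.44 (adjusted p 0.0215 each; 0.0748 each in the 8 libraries alone), while the other 13 tested members were not called and the list's median was 0.28, and as low as -0.08 without 1 library. Klf4, which round spermatids also express, was at 127, 51.9, 140 and 32.9 CPM in Low-VCR and 19.9, 19.1, 37.3 and 20.2 CPM in High-VCR, with High-VCR 3 above Low-VCR 4. Fosb was at 1.93, 2.22, 1.51 and 2.25 CPM against 0.678, 0.519, 0.263 and 0.391 CPM, without overlap. Fdft1, squalene synthase, was the only call among 24 cholesterol genes (4.17%, where 4.69% of all tested genes fell). It fell by 0.66 ± 0.17 (adjusted p 0.0286, and 0.112 in the 8 libraries alone).

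No gene bearing on the handling of the drug was called. None of 17 tubulins passed, with a median of -0.18, and Tubb6 came closest at -0.71 ± 0.22 (adjusted p 0.0546). None of 12 efflux and metabolism genes passed, with a median of 0.40 (0.10 with scaling to Sertoli genes). The pump Abcg2 was at -0.47 ± 0.16 (adjusted p 0.0704) and Abcb1a, which exports vincristine, at 0.47 (adjusted p 0.105). None of 25 genes of the mitotic spindle and checkpoint passed, and their median was -0.27.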

How the data were processed

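Poly(A)-selected RNA of 20 testis samples in 5 groups of 4 was sequenced. The deposited table holds raw counts for each gene symbol, as whole numbers without scaling. Tools named in the submitters' processing notes are featureCounts, Subread 2.0.3, STAR 2.7.10b, Trimmomatic 0.39 and DESeq2 1.36.0, with the build GRCm39 (mm39). Their roles, the annotation, the strand setting and any removal of human reads are not given in the sources used here. Overlapping and near-identical genes are therefore uncertain.

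The test was that of edgeR 4.0.16 in R 4.3.3 (TMM, filterByExpr with a minimum count of 10, robust glmQLFit, glmQLFTest). One fit of 5 group means over 20 libraries left 15 residual degrees of freedom. CPM values carry TMM scaling. Totals of 13 to 16.4 M counts over the 8 libraries set the precision of low genes. Of 22066 symbols, 1207 had no count and 20257 matched the RefSeq table (GRCm38.p6), used for names, neighbours and promoter windows. Replicates differed beyond counting noise in a chi-square check. Scripts were tested on simulated data.

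The comparison, the 40 gene lists (760 symbols) and the alternatives were chosen with earlier results of these data known, so lists are described by counts and medians, without a test. Named genes were Tssk4 and Ccdc159, the 12 largest rises and falls among called genes without overlap and with at least 1 CPM, and up to 3 called members per list (or 1 not called). The rule asked first for an adjusted p under 0.05 in the 8 libraries alone, which no gene met. Other list members, such as those of the Tssk, CatSper, fusion, acrosome and protamine genes, were named after their values were seen. Some items are not reported here. Unnamed models, Xist and Y-linked genes (27 called) were counted only. The alternatives were other scalings, filters and sample sets, replicate and library-range blocks, DESeq2 1.42.0, limma 3.58.1 voom, a pseudocount of 0.25 in the permutation test, and leaving out each library.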

Additional observations from a re-analysis of the deposited data

Results flagged for a closer look

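In each group of 4 libraries, a library was marked where its gap to the nearest other, divided by the group's range, exceeded Dixon's 95% critical value. Chance marks about 1 in 20 such groups, and 17 of 252 were marked here. No cause was tested.

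In Low-VCR, library 2 stood low for the basement membrane genes Lamc1 (54.4 CPM, others 73.2 to 75.2), Col4a1 (66.2, others 115 to 121) and Col4a2 (60.8, others 101 to 107). It was also low for the complement score (4.79 log2 CPM, others 5.23 to 5.27) and the score of efflux and metabolism genes (2.06, others 2.93 to 3.08). Low-VCR 4 stood high for Btbd6 (3.27 CPM, others 0.59 to 0.69). Low-VCR 3 stood high for the undifferentiated spermatogonia score (1.98 log2 CPM, others 1.74 to 1.78), and Low-VCR 1 low for the Sertoli score (6.08, others 6.28 to 6.31).

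In High-VCR, library 2 stood low for Sox9 (51.3 CPM, others 80.8 to 84.2), Hif1a, a hypoxia regulator (57.4, others 88.5 to 92.7), and Tubb6 (16.6, others 23.9 to 24.6). It was low as well for the scores of Sertoli genes (6.02 log2 CPM, others 6.61 to 6.67), extracellular matrix (5.37, others 5.67 to 5.72) and mitochondrially encoded genes (10.6, others 11.3 to 11.4). High-VCR 1 stood high for Angptl4 (54.2 CPM, others 20.5 to 25.6), and High-VCR 3 high for Klf4 (37.3, others 19.1 to 20.2). Dpp6 was at 0.0657 CPM in High-VCR 3, a single count, and at 0 in the others.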

How the results depend on the processing

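The number of called genes, 1292 in the reported fit, was 690 with scaling to Sertoli genes, 2129 with DESeq2 (1291 of them shared) and 711 with limma voom (673 shared). edgeR called 0 genes in the 8 libraries alone, 0 in the 12 treated libraries (smallest adjusted p 0.171, 2976 genes at an unadjusted p under 0.05) and 0 with the library range as a block (0.121 and 3375). Same-numbered libraries did not deviate together throughout (correlations of 0.00, 0.07, 0.18 and 0.15), while other pairs ran from -0.27 to 0.21. So few values cannot tell whether the numbers pair the samples. With a replicate block the 8 libraries gave 525 calls (465 lower, 60 higher), 358 of them shared. Leaving out 1 library gave 0 to 3218 calls. The 0 calls came without Low-VCR 1 (3464 at an unadjusted p under 0.05), Low-VCR 3 (3693), High-VCR 1 (3165) and High-VCR 4 (3254), and 3218 came without High-VCR 2. The cause was not tested. Total calls stayed within 1.5 times with DESeq2 size factors (1182), library size (1095), upper quartile (1093), no filter (1085) and a filter of 1 CPM in 4 libraries (1283), but rises, 517 in the reported fit, were 289 with upper quartile and 182 with no filter. Of 67 named calls, 39 remained with scaling to Sertoli genes, 43 without Low-VCR 2, 55 without High-VCR 3, 64 without High-VCR 2 and 66 without Low-VCR 4; all 65 that were tested were lost in the 8 libraries alone. The neutrophil gene Csf3r, not called at 0.23, turned to -0.0364 with scaling to Sertoli genes and ranged from -0.0348 to 0.37 without 1 library; mt-Nd4l, not called at 0.32, turned to -0.0140 with that scaling. Medians of 11 of the 40 lists turned sign with it, 1 (differentiating spermatogonia) with another scaling and 6 without 1 library. At an adjusted p under 0.1, a threshold added after seeing the data, the 8 libraries alone gave 996 falls and 373 rises, among them 791 of the 1183 calls tested there. At these depths, genes under 0.167 to 0.23 CPM rest on under 3 counts per library.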

Other observations

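The following gene families, grouped by name, were chosen after the data were seen. Of 42 tested Tex genes 10 fell and 0 rose, of 31 Spata genes 6 and 0, of 40 Cfap genes 7 and 0, and of 32 Adam genes 9 and 1, the rise being that of Adam10, a broadly expressed sheddase. Ccdc genes, the family of Ccdc159, gave 9 falls and 3 rises among 135. Of 8 Samt genes 6 fell, of 6 Ssx genes 4 and of 10 Speer genes 5, while of 10 Rhox genes, an X-linked cluster, 2 fell, and none of these rose. Symbols of such multicopy families can share reads. Beside a background of 4.69% falls and 3.13% rises, 4.69% and 5% of 320 Slc genes fell and rose, 2.61% and 2.09% of 383 Zfp genes, 7.28% and 4.85% of 206 Tmem genes, and 6.94% and 2.08% of 144 Fam genes. These shares are descriptions, without a test.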
